A study of Homo sapiens with 18 samples.

Results

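The 35 genes described here make, sense and move cholesterol and fatty acids, and were followed in MDA-MB-231 cells after knockdown of EZH2 or E2F1 and after inhibition of EZH2. They were taken as a named list from the 62703 genes in the deposited tables, were matched by Ensembl identifier to GENCODE symbols, and all 35 were found. By role, 18 are enzymes of sterol synthesis, 7 are enzymes of fatty acid synthesis and desaturation, 5 sense sterols or carry that signal to the nucleus, 2 move sterols within the cell and 3 are targets of the liver X receptors (LXR). All 35 passed the filter on low counts in both experiments.

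MDA-MB-231 is an established cell line of triple-negative breast cancer. In the knockdown experiment, cells received lentivirus carrying a control shRNA, an shRNA against EZH2 (shEZH2) or an shRNA against E2F1 (shE2F1) for 24 h, followed by puromycin at 2 μg/ml for 72 h, the controls included. In the drug experiment, for which no transduction is described, cells received DMSO or 1 μM GSK126, which blocks the enzyme activity of EZH2, for 72 h. EZH2 methylates histone H3 as part of the Polycomb complex PRC2, and E2F1 drives genes of cell cycle entry. Each group held 2 libraries of polyadenylated RNA, since the 18 sample records were 10 distinct libraries and 8 repeats of their values. A single cell line was used, the labels name no more than 1 hairpin group per target, and nothing states that the libraries came from separate cultures, so the p-values measure the spread between these libraries, which may be technical. In bulk RNA, fewer cells of a state and less RNA per cell cannot be told apart.

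Animal cells build cholesterol from acetyl-CoA through mevalonate and squalene, and long-chain fatty acids from the same precursor through malonyl-CoA. Both routes are driven by the sterol regulatory element-binding proteins (SREBPs), transcription factors that INSIG proteins hold in the endoplasmic reticulum and that SCAP escorts to the Golgi for cleavage when sterols are low. SREBF2 encodes the form known mainly for sterol genes and SREBF1 encodes the forms known mainly for fatty acid genes. LXRs respond to oxidised sterols by raising cholesterol export and SREBF1.

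Promoter sequences were examined first, because SREBPs are known to act beside the factor NF-Y at many of these genes. RefSeq windows from 250 bases before to 50 bases after an annotated start (GRCh38.p14) covered 30 of the 35 genes, in 40 windows. Both strands were searched for the sterol regulatory element TCACNCCAC, the NF-Y box CCAAT, and the E2F motifs TTTGGCGC and TTTCCCGC, and no matches to different motifs overlapped. The NF-Y box stood in a window of 13 of 15 sterol synthesis genes (86.7%) and of 4 of 6 fatty acid genes (66.7%), against 39.7% of all 27305 genes with a window. The sterol element matched at 1 of the 30 genes, SREBF2, against 1.39% of all genes. An E2F motif stood at 3 of the 30, MVK, ACACA and INSIG2, against 2.75%. These are matches of letters, and an absent match says only that these letters are not in the window.

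The sequences printed here are the 250 bases before the start of both SREBP genes, which moved apart under shEZH2, and of MVK, MSMO1 and SCD, which differed in motif content and in response. Capitals mark matches on either strand to the sterol element, the NF-Y box or an E2F motif, and each sequence runs 5′ to 3′ on the strand of its gene. SREBF2 (chr22:41832855-41833104, plus strand) held the sterol element 133 bases and an NF-Y box 106 bases before the start, and SREBF1 (chr17:17836987-17837236, minus strand) held none of the motifs. No window at any other SREBF1 start was searched. MVK (chr12:109573544-109573793, plus strand) held 5 NF-Y boxes and an E2F motif, MSMO1 (chr4:165327419-165327668, plus strand) held 4 NF-Y boxes, and SCD (chr10:100346983-100347232, plus strand) held 2.
SREBF2: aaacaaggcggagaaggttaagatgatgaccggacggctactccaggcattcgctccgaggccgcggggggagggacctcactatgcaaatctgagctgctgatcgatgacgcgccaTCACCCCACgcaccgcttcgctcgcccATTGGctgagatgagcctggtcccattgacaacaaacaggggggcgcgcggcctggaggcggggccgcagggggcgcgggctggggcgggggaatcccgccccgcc
SREBF1: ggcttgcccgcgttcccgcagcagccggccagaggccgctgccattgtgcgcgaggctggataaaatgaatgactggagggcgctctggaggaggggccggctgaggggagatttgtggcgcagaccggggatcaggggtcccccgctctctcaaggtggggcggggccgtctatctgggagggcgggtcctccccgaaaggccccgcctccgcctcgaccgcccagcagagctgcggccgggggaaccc
MVK: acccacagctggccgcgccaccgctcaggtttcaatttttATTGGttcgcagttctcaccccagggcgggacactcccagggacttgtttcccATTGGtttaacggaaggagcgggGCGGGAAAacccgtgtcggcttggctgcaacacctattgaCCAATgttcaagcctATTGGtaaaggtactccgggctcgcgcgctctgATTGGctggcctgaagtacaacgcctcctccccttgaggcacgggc
MSMO1: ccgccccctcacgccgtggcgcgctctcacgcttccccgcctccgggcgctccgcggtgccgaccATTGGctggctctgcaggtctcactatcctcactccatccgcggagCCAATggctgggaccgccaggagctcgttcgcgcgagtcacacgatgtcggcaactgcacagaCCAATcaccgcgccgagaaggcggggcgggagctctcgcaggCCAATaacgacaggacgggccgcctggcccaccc
SCD: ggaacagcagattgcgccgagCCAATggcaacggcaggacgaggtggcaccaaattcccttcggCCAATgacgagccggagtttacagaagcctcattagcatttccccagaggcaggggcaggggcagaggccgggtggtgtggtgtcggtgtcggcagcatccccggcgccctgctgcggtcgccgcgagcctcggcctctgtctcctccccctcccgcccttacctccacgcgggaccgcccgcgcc

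Total expected counts ran from 13198932 to 20055550 per library. Levels are given as CPM (counts scaled to library size by TMM), and changes as log2 fold changes ± SE from edgeR's quasi-likelihood test, adjusted by Benjamini-Hochberg across every gene that was tested. A gene is said to have risen or fallen at an adjusted p under 0.05, and to have been called when the adjusted p was under 0.01 and the change over 2-fold. EZH2 read 153 and 181 CPM under control shRNA and 52.7 and 44.8 CPM under shEZH2, and E2F1 fell from 143 and 138 CPM to 26.0 and 22.5 CPM in shE2F1. E2F1 also read 62.5 and 32.3 CPM in shEZH2, and EZH2 read 121 and 137 CPM in shE2F1 (log2 -0.37, adjusted p = 0.0227). The line's markers VIM, CD44, AXL, MSN and CAV1 were at 424 CPM or more in every library, and ESR1 and PGR were at 0.216 CPM or less, but several markers moved with the knockdowns. Under shEZH2 VIM (log2 -1.33), AXL (-1.83), MSN (-0.64) and CAV1 (-1.27) fell, as did the keratin KRT18 (-0.39), and the epithelial cadherin CDH1 rose from 0.848 and 0.180 CPM to 2.41 and 2.65 CPM. Under shE2F1 AXL (log2 -2.23), MSN (-0.93), CAV1 (-0.83), VIM (-0.27) and the epithelial EPCAM (-1.24) fell, and CDH1 rose to 9.83 and 6.42 CPM. The part of these shifts in the results for the lipid genes was not tested.

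The 2 control shRNA libraries differed in these genes, which bears on every comparison with them. Replicate 2 was below replicate 1 in 33 of the 35 genes (94.3%), against 49.9% of the 14377 genes tested in both experiments, by a median of 0.47 on the log2 scale against 0. SCD read 563 and 149 CPM in the 2 control libraries, INSIG1 195 and 55.5 CPM, FASN 574 and 319 CPM, and SREBF1 172 and 84.8 CPM. Within shEZH2, shE2F1, DMSO and GSK126 the median difference between replicates stayed between -0.11 and 0.14 in the sterol and fatty acid enzymes. Changes against control shRNA are therefore also given with either control library left out, where a single control library is assumed to vary as the other groups did. The direct comparison of shEZH2 with shE2F1 uses no control library.

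**Figure D1:**
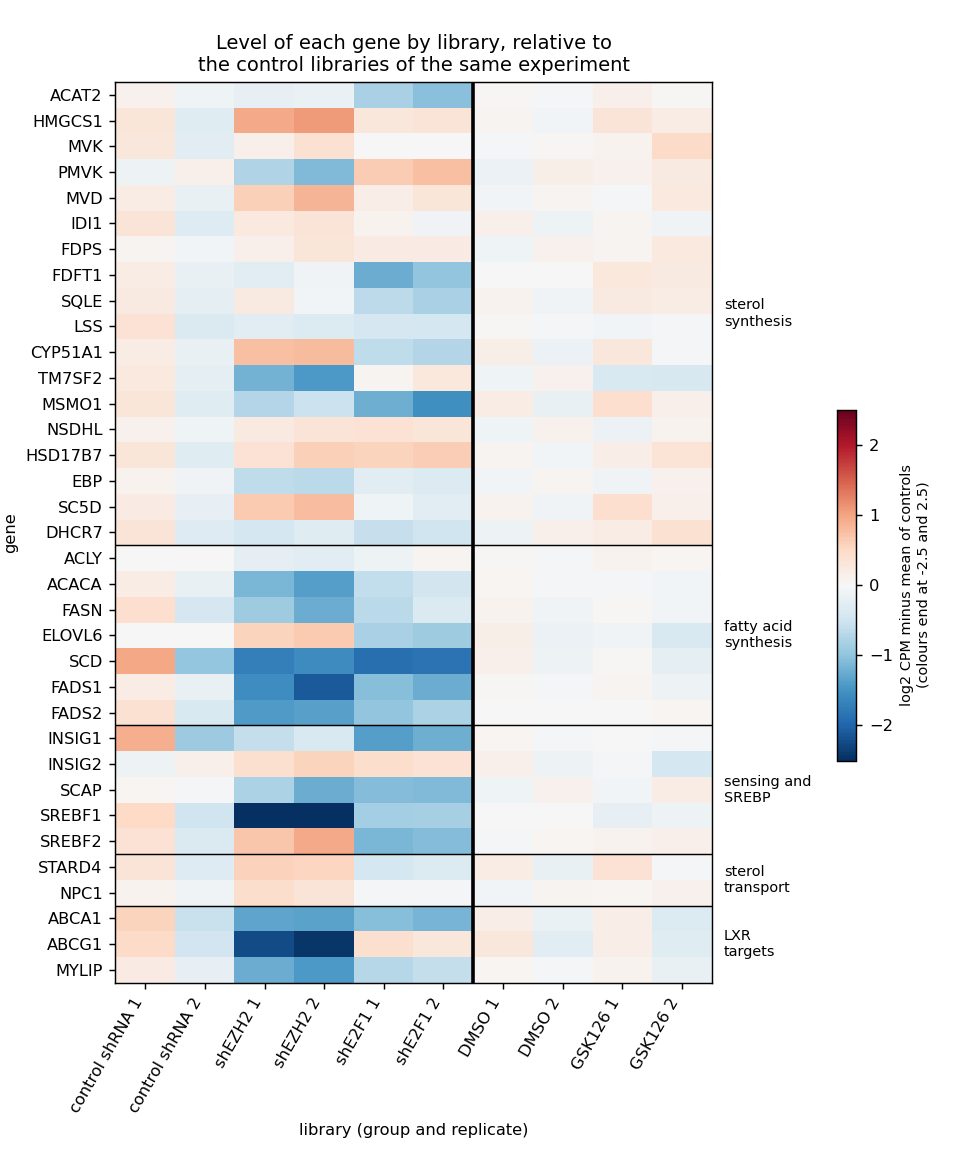
Colour shows log2 CPM of each of the 35 genes (rows, by role) in each of the 10 libraries (columns), minus the mean of the control libraries of the same experiment (control shRNA left of the thick line, DMSO right of it). Control shRNA replicate 2 is paler or bluer than replicate 1 in 33 genes, SREBF1 is dark blue in both shEZH2 libraries, and the drug libraries show little colour.

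Under shEZH2, most fatty acid enzymes fell, while the sterol enzymes moved in both directions, in shares no larger than those of all genes. Of the 7 fatty acid genes, 6 fell, 5 of them by more than 2-fold, and 1 rose, with a median of -1.29 on the log2 scale. Of the 18 sterol enzymes, 4 rose, 4 fell and 10 did not pass the test, with a median of 0.13. Of all genes, 27% rose and 28.6% fell. Without control replicate 1 the sterol enzymes were 9 higher and 3 lower, and without replicate 2 they were 4 and 7. Over all 35 genes, 9 rose and 15 fell, against 27% and 28.6% of the 15373 genes tested, and 11 were called, all lower, against 18.2% of all genes called in either direction. The median of all genes was -0.02.

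Summed in TPM, a scale that takes account of transcript length, the fatty acid enzymes held 670 and 402 TPM in the control shRNA libraries and 355 and 322 TPM in shEZH2. The sterol enzymes held 960 and 731 TPM in the controls and 972 and 1010 TPM in shEZH2. The fatty acid sums of both shEZH2 libraries were below both controls, and the sterol sums were above both.

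The arms also differed within each shEZH2 library, both libraries being set against the mean of the same 2 unlike controls. The median of the fatty acid enzymes, as log2 CPM minus the control mean, was -1.14 and -1.37 in the 2 shEZH2 libraries, and that of the sterol enzymes was 0.13 and 0.12. Per length, the most abundant of the 35 genes in control shRNA were FDPS, which makes farnesyl diphosphate, at a mean of 190 TPM, EBP at 142 TPM, ACLY at 124 TPM, and FASN at 116 TPM, and ABCG1 was lowest at 1.24 TPM. SCD had 159 and 40 TPM in the 2 control libraries. Both arms therefore held abundant transcripts.

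SREBF1 (chr17:17810399-17837002, GRCh38) had the largest fall of the 35 genes other than ABCG1. Its level was 172 and 84.8 CPM with control shRNA, 15.4 and 10.3 CPM with shEZH2, and 67.0 and 67.4 CPM in shE2F1. The shEZH2 libraries lay far below all others, at a log2 change of -3.35 ± 0.30 (adjusted p = 1e-05), a fall by 90.2%. Without control replicate 1 the log2 change was -2.76, and without control replicate 2 it was -3.77. SREBF2 (chr22:41833105-41907306) moved the other way, from 126 and 76.2 CPM to 159 and 189 CPM, a rise of 0.77 ± 0.19 (adjusted p = 0.0051) that was 1.18 or 0.45 without either control library in turn.

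Transcripts of SCAP and INSIG2, whose proteins escort and hold the SREBPs, also changed. SCAP, the escort, read 112 and 104 CPM in the controls and 62.2 and 45.6 CPM in shEZH2, a fall by 50.5% (log2 -1.02 ± 0.14, adjusted p = 0.00011). INSIG2, one of the retention proteins, rose from 23.7 and 28.1 CPM to 34.4 and 38.2 CPM (log2 0.48 ± 0.12, adjusted p = 0.00626). INSIG1, the retention protein that is itself an SREBP target, lay at 68.4 and 80.0 CPM, between its 2 control values, and did not pass the test (adjusted p = 0.124).

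SCD, FADS1 and FADS2, the desaturases of the list, which place double bonds in fatty acids, all fell under shEZH2. Outside the list, the desaturase gene FADS3 rose (log2 0.58, adjusted p = 0.00205) and SCD5 did not pass (adjusted p = 0.483). SCD, which makes monounsaturated fatty acids, read 87.8 and 96.8 CPM in shEZH2 against 563 and 149 CPM in the controls (log2 -1.96 ± 0.43, adjusted p = 0.00285), and this was -0.70 without control replicate 1 and -2.62 without replicate 2. FADS1, the delta-5 desaturase of polyunsaturated fatty acids, fell from 160 and 125 CPM to 48.1 and 32.5 CPM (log2 -1.84 ± 0.18, adjusted p = 1.44e-05). Its neighbour FADS2, the delta-6 desaturase, fell from 196 and 115 CPM to 55.9 and 58.0 CPM (log2 -1.46 ± 0.20, adjusted p = 0.000132). All 6 values of SCD, FADS1 and FADS2 in shEZH2 lay below their controls, a separation that was not counted over all genes. FADS1 and FADS2 overlap on opposite strands of chromosome 11 in 4.8% and 4.6% of their exon bases, and whether the counting used strand is not stated.

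The chain-building enzymes were less uniform. ACACA, which makes malonyl-CoA, read 130 and 99.4 CPM in the controls and 51.4 and 43.4 CPM in shEZH2 (log2 -1.29 ± 0.14, adjusted p = 3e-05). FASN, the fatty acid synthase, read 574 and 319 CPM and then 230 and 181 CPM (log2 -1.13 ± 0.23, adjusted p = 0.00167), or -0.65 without control replicate 1. ACLY, which supplies acetyl-CoA from citrate, fell by 16.9% (adjusted p = 0.0289), and no longer passed without control replicate 1 (log2 -0.25, adjusted p = 0.0645). ELOVL6, which lengthens palmitate, was the exception, rising from 123 and 120 CPM to 177 and 192 CPM (log2 0.59 ± 0.09, adjusted p = 0.000229). Its control libraries were almost equal.

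**Figure D2:**
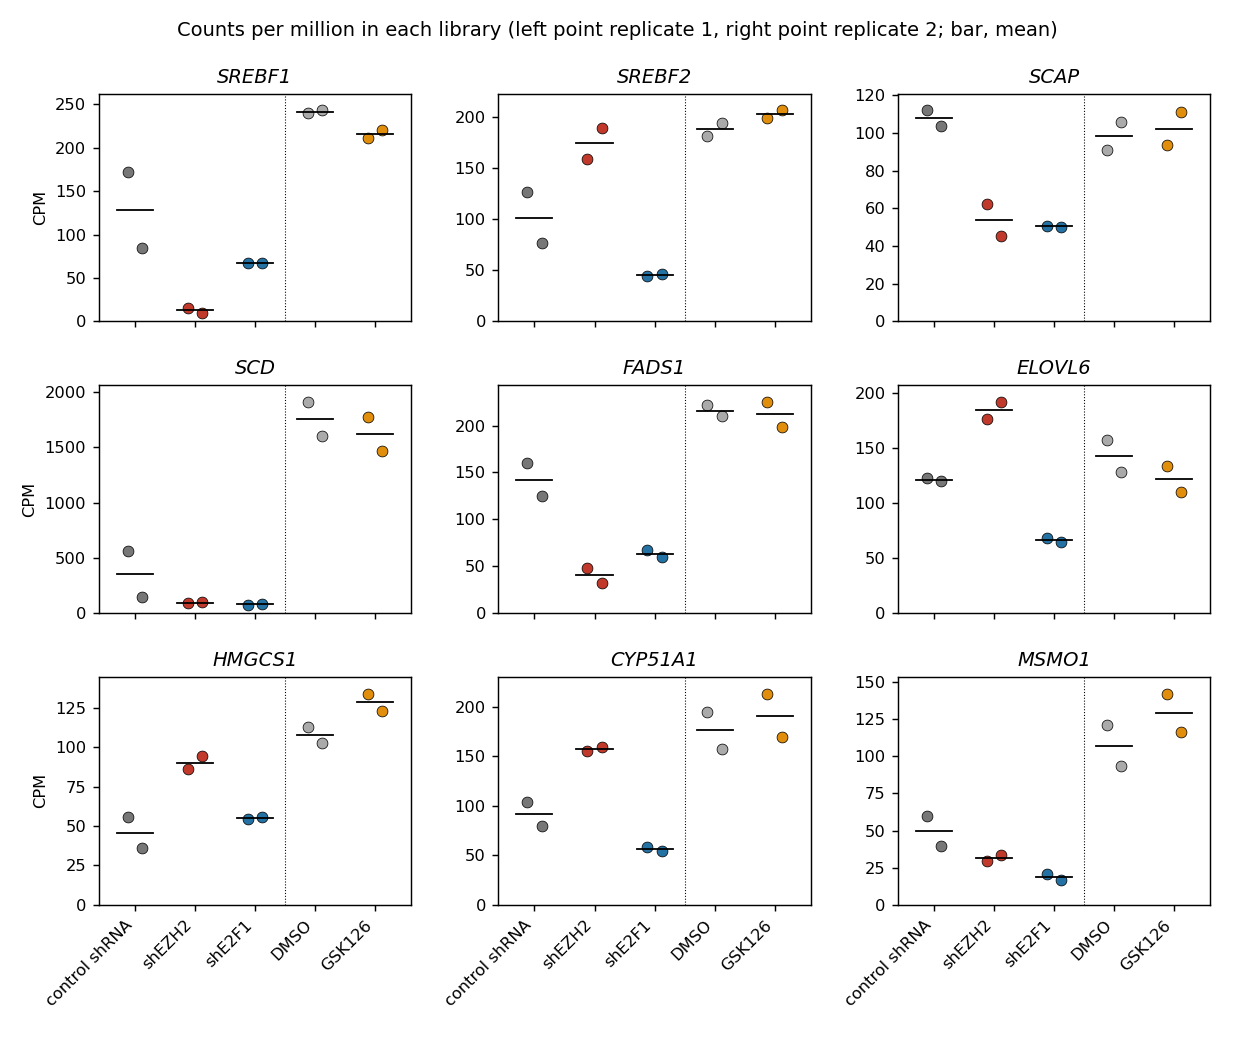
CPM (vertical axes, from 0) of 9 genes in the 2 libraries of each group (points; bars are means). SREBF1 reads 15.4 and 10.3 in shEZH2, SREBF2 is higher than its controls in shEZH2 and lower in shE2F1, SCD reads 563 and 149 in the 2 control shRNA libraries against 1910 and 1600 in DMSO, and ELOVL6 and CYP51A1 move opposite ways in the 2 knockdowns.

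The sterol enzymes under shEZH2 are described in the order of the pathway. HMGCS1, which condenses the units of mevalonate, rose from 55.6 and 35.9 CPM to 86.4 and 94.2 CPM (log2 0.97 ± 0.17, adjusted p = 0.00057). PMVK, a mevalonate pathway kinase, fell from 17.8 and 21.2 CPM to 11.3 and 8.76 CPM (log2 -0.98 ± 0.16, adjusted p = 0.000463), while MVD, the next enzyme, rose from 21.8 and 16.6 CPM to 28.9 and 34.6 CPM (log2 0.71 ± 0.15, adjusted p = 0.00261). Adjacent steps of the mevalonate route therefore moved in opposite directions. IDI1, FDPS, FDFT1, SQLE and LSS, which carry the route from isopentenyl units through squalene to lanosterol, did not pass the test, and neither did ACAT2 or MVK.

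Of these enzymes, FDPS and ACAT2 had groups that did not overlap, but by less than the test required. FDPS stood at 139 and 125 CPM with control shRNA and 145 and 163 CPM with shEZH2, a higher level in both libraries. ACAT2 stood at 86 and 74.1 CPM and then at 69.6 and 71.2 CPM. MVK, the first mevalonate kinase, stood at 23.5 and 15.6 CPM and then at 21.1 and 25.1 CPM, so its groups overlapped. IDI1 (48.0 and 51.1 CPM), FDFT1 (37.4 and 42.5 CPM), SQLE (23.0 and 18.5 CPM) and LSS (83.3 and 79.5 CPM) also lay within or across the range of their controls.

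The enzymes after lanosterol were as mixed. CYP51A1, the lanosterol demethylase, rose from 104 and 79.9 CPM to 155 and 159 CPM (log2 0.76 ± 0.12, adjusted p = 0.000395), and SC5D, a late desaturase, rose from 49.5 and 37.1 CPM to 67.4 and 73.5 CPM (log2 0.69 ± 0.14, adjusted p = 0.00151). TM7SF2, a sterol reductase, fell from 9.91 and 6.90 CPM to 3.39 and 2.77 CPM (log2 -1.47 ± 0.24, adjusted p = 0.000474) and was the only sterol enzyme called. EBP, a sterol isomerase, fell by 37.3% (adjusted p = 0.000225). MSMO1, the methyl sterol oxidase, read 60 and 39.5 CPM and then 29.2 and 33.5 CPM (log2 -0.68 ± 0.18, adjusted p = 0.00933), and did not pass without control replicate 1 (-0.35, adjusted p = 0.0937). NSDHL and HSD17B7, which act in demethylation, stood at 50.1 and 53.2 CPM and at 9.80 and 11.7 CPM, above both controls, and DHCR7 at 67.7 and 75.1 CPM, and none of them passed (adjusted p = 0.0555 for DHCR7).

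Both sterol transport genes rose and all 3 LXR targets fell under shEZH2. NPC1, which exports cholesterol from lysosomes, rose by 29.1% (log2 0.37 ± 0.10, adjusted p = 0.00792). STARD4, a cytosolic sterol carrier, rose by 42.7% (adjusted p = 0.0289), but not without control replicate 2 (log2 0.23, adjusted p = 0.145). ABCA1, the cholesterol exporter to lipid-poor apolipoprotein, read 111 and 50.8 CPM in the controls and 30.0 and 29.4 CPM in shEZH2 (log2 -1.47 ± 0.28, adjusted p = 0.00105), or -0.79 without control replicate 1 and -1.92 without replicate 2. MYLIP, an E3 ubiquitin ligase that acts on lipoprotein receptors, fell from 19.9 and 14.8 CPM to 7.01 and 5.99 CPM (log2 -1.43 ± 0.19, adjusted p = 0.00011). ABCG1, an exporter to high-density lipoprotein, had 62 and 24 counts in the controls, 1 and 0 in shEZH2 and 64 and 52 in shE2F1. Its ratio to the controls per scaled library was 0.0135, with an exact 95% interval of 0.000338 to 0.0772 that covers counting error only.

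Of the 24 genes that changed under shEZH2, 21 also passed with either control library left out, the exceptions being MSMO1, ACLY and STARD4. ACLY and STARD4 did not pass without either shEZH2 library in turn (adjusted p = 0.07 and 0.14 for ACLY, 0.0803 and 0.0618 for STARD4), nor without one of the shE2F1 libraries (0.05 each), nor did NPC1 without shEZH2 replicate 1 (log2 0.31, adjusted p = 0.0507). The count was 15 higher and 13 lower without control replicate 1, where 23.1% and 24.2% of all genes were, and 8 and 19 without replicate 2, where 24.5% and 25.6% were. The fatty acid enzymes were then 1 higher and 5 lower, or 1 and 6. The fatty acid median was -0.70 or -1.49 and the sterol median 0.30 or -0.11 in those fits, so the sterol median took either sign.

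The sizes of the other shEZH2 changes, without control replicate 1 and then without replicate 2, were as follows on the log2 scale. Of the fatty acid enzymes, FADS1 was at -1.65 and -2.01, FADS2 at -1.03 and -1.80, ACACA at -1.09 and -1.47, FASN at -0.65 and -1.49, and ELOVL6 at 0.61 and 0.58. SCAP was at -0.96 and -1.07, INSIG2 at 0.36 and 0.61, MYLIP at -1.21 and -1.63, and NPC1 at 0.47 and 0.28. Of the sterol enzymes that rose, HMGCS1 was at 1.32 and 0.69, CYP51A1 at 0.96 and 0.58, MVD at 0.93 and 0.53 and SC5D at 0.91 and 0.50, and of those that fell, PMVK was at -1.11 and -0.84, TM7SF2 at -1.19 and -1.71 and EBP at -0.58 and -0.76. Each kept its direction in both fits.

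GC content moved with the shEZH2 comparison. The median log2 change of all genes ran from 0.22 in the lowest of 10 equal bins of transcript GC to -0.51 in the highest, the bin of SREBF1, FASN, SCAP, MVD and TM7SF2. The arms were alike in GC, with medians of 48.3% for the sterol and 49.3% for the fatty acid enzymes. After a correction for GC and length, SC5D, ACLY and STARD4 no longer passed, at adjusted p of 0.0614, 0.168 and 0.329.

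Under shE2F1, more of these genes fell than rose. Of the 35 genes, 3 rose and 19 fell, against 21.1% and 23.7% of all genes tested, and 8 were called, all lower, against 11.6% of all genes called in either direction. Of the 7 fatty acid enzymes, 5 fell and none rose, with a median of -0.87. Of the 18 sterol enzymes, 8 fell and 2 rose, with a median of -0.13. The sterol split depended on the controls, with 4 higher and 5 lower without control replicate 1 and 1 and 9 without replicate 2. The median of all genes was 0. These comparisons use the same control libraries as those of shEZH2.

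**Figure D3:**
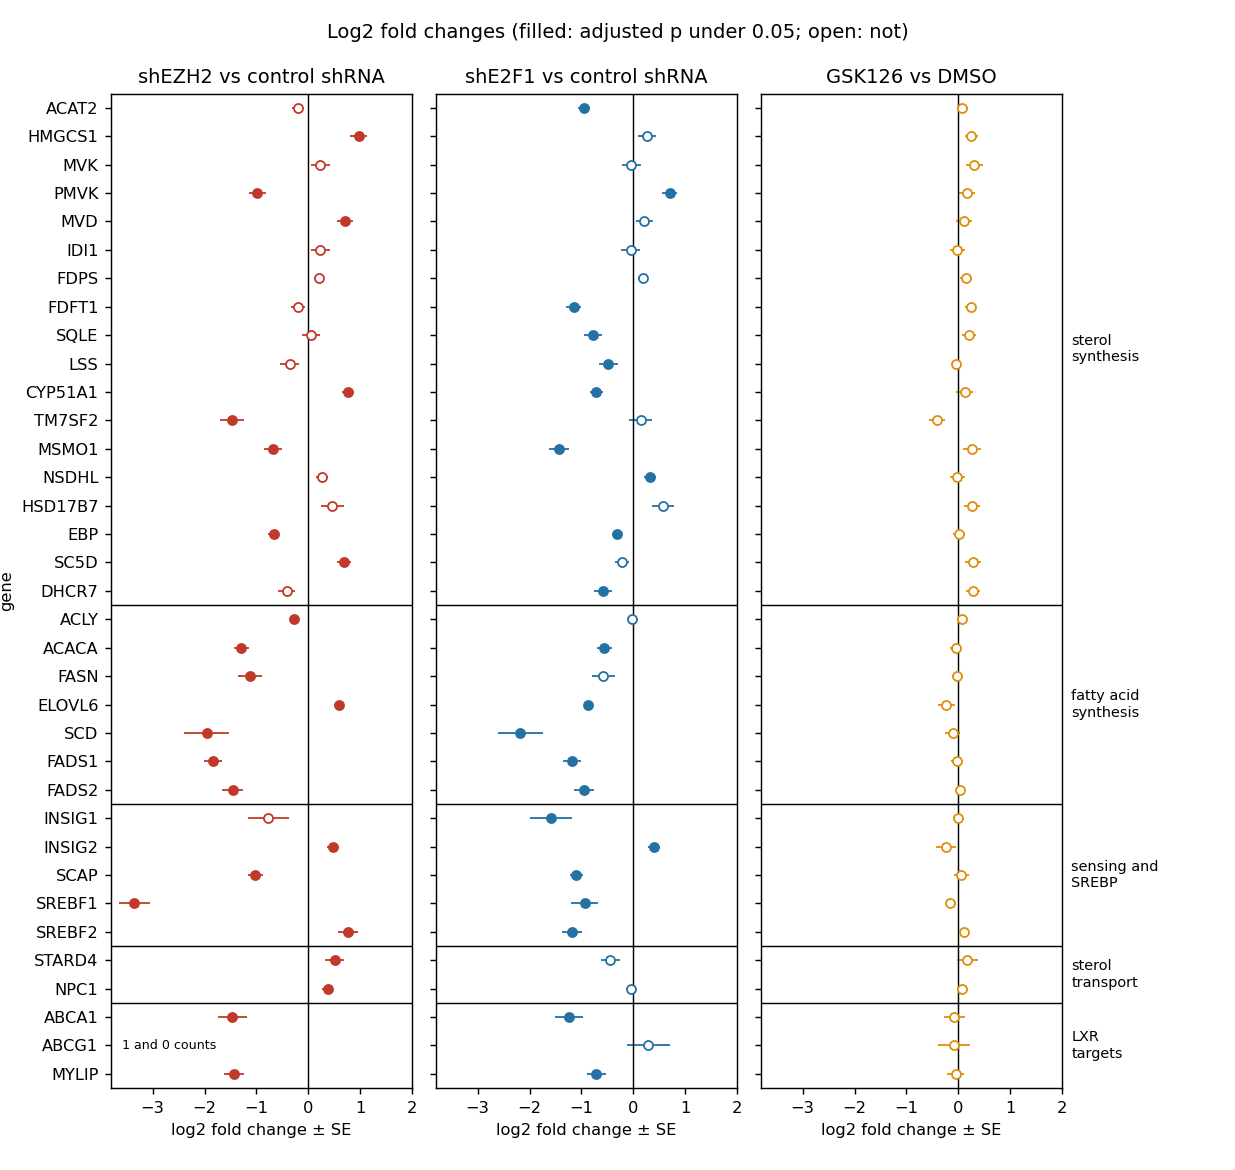
Log2 fold changes (points) ± SE (bars) of the 35 genes, by role, in shEZH2 and shE2F1 against control shRNA and in GSK126 against DMSO. Filled points passed at an adjusted p under 0.05, and ABCG1 has no point in the shEZH2 panel because it had 1 and 0 counts there. Nearly all fatty acid genes lie left of 0 in both knockdowns, sterol genes lie on both sides, and no GSK126 point is filled. The fits shown have no term for replicate number.

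The SREBP system fell under shE2F1 at both factor genes. SREBF2 read 44.1 and 46.2 CPM against 126 and 76.2 CPM in the controls (log2 -1.18 ± 0.19, adjusted p = 0.000643), and -0.77 or -1.49 without either control. SCAP fell to 50.8 and 50.2 CPM (log2 -1.10 ± 0.13, adjusted p = 9.02e-05), with -1.05 and -1.15 in those fits. INSIG1 fell from 195 and 55.5 CPM to 39.8 and 44.1 CPM (log2 -1.59 ± 0.41, adjusted p = 0.00917), a change of -0.42 without control replicate 1 and -2.22 without replicate 2. SREBF1 fell by 48.0% (log2 -0.94 ± 0.26, adjusted p = 0.0131), and did not pass without control replicate 1 (-0.35, adjusted p = 0.117). INSIG2 rose by 32.0% (adjusted p = 0.0194), and did not pass without control replicate 1 (adjusted p = 0.114). With DESeq2, INSIG1 and SREBF1 had adjusted p of 0.0623 and 0.0993.

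The same desaturases, SCD, FADS1 and FADS2, fell under shE2F1 as well. SCD fell to 78.1 and 80.5 CPM (log2 -2.18 ± 0.43, adjusted p = 0.00215). It was -0.92 without control replicate 1 and -2.83 without replicate 2. FADS1 fell to 66.8 and 59.5 CPM (log2 -1.18 ± 0.17, adjusted p = 0.000276) and FADS2 to 75.9 and 86.8 CPM (log2 -0.95 ± 0.20, adjusted p = 0.00262). Without control replicate 1 FADS1 was -0.99 and FADS2 -0.51, and without replicate 2 they were -1.34 and -1.28. ELOVL6 fell to 68.7 and 65.1 CPM (log2 -0.87 ± 0.09, adjusted p = 3.21e-05), opposite to its rise under shEZH2, with -0.85 and -0.88 without either control in turn. ACACA fell by 32.3% (adjusted p = 0.00644), or a log2 change of -0.36 and -0.74 without either control in turn. FASN, at 269 and 330 CPM, overlapped its controls (adjusted p = 0.0557), and ACLY, at 329 and 374 CPM, did too. All 5 changes passed with either control left out, but ACACA did not without shE2F1 replicate 1 (log2 -0.49, adjusted p = 0.0735).

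Among sterol enzymes under shE2F1, FDFT1, SQLE, MSMO1 and CYP51A1, which act around squalene and lanosterol, fell. LSS, also of these steps, fell less (log2 -0.48) and stood at -0.08 without control replicate 1. FDFT1, the squalene synthase, fell from 51.5 and 39.7 CPM to 18.9 and 22.5 CPM (log2 -1.15 ± 0.15, adjusted p = 0.000126). SQLE, the squalene epoxidase, fell from 23.0 and 16.5 CPM to 12.2 and 10.9 CPM (log2 -0.78 ± 0.18, adjusted p = 0.00582). MSMO1 fell to 20.6 and 16.5 CPM (log2 -1.43 ± 0.19, adjusted p = 0.000155) and CYP51A1 to 58.6 and 54.5 CPM (log2 -0.71 ± 0.12, adjusted p = 0.000931). All 8 of these library values lay below both controls of their gene, a separation that was not counted over all genes. Without control replicate 1 and then without replicate 2, the log2 change was -0.95 and -1.32 for FDFT1, -0.52 and -0.99 for SQLE, -1.10 and -1.69 for MSMO1, and -0.51 and -0.89 for CYP51A1.

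ACAT2, which joins acetyl-CoA units at the head of the route, fell from 86 and 74.1 CPM to 45.4 and 38.2 CPM (log2 -0.95 ± 0.12, adjusted p = 9.37e-05). PMVK rose to 30.6 and 32.9 CPM (log2 0.70 ± 0.15, adjusted p = 0.00312). These were -0.84 and -1.04 for ACAT2 and 0.57 and 0.84 for PMVK without either control in turn. Smaller changes that did not pass with one or the other control left out were those of LSS (fell by 28.5%, adjusted p = 0.0479), EBP (fell by 19.5%, adjusted p = 0.0241), DHCR7 (fell by 33.2%, adjusted p = 0.0164) and NSDHL (24.9% higher, adjusted p = 0.0301). In all, 6 of 10 sterol changes passed with either control left out.

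The rest of the sterol and transport genes did not pass under shE2F1. MVK, at 19.3 and 19.0 CPM, and IDI1, at 43.3 and 38.0 CPM, lay between their 2 control values. HMGCS1, at 54.6 and 55.8 CPM, overlapped its controls of 55.6 and 35.9 CPM. MVD, TM7SF2 and SC5D overlapped their controls, at 21.4 and 23.5 CPM, 8.73 and 9.98 CPM, and 39.6 and 35.3 CPM. HSD17B7, at 11.3 and 11.9 CPM (adjusted p = 0.0505), and FDPS, at 152 and 153 CPM, were above both controls. STARD4, at 21.5 and 23.1 CPM (adjusted p = 0.0667), was just below both, and NPC1, at 144 and 142 CPM, was between them.

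In each shE2F1 library the median of the fatty acid enzymes was below that of the sterol enzymes, at -0.82 and -0.79 against -0.05 and -0.18, as log2 CPM minus the control mean. The fatty acid enzymes summed to 347 and 399 TPM, against 670 and 402 TPM in the controls, so 1 library was barely below the lower control. The sterol enzymes summed to 860 and 881 TPM, between their controls.

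Of the LXR targets, ABCA1 fell to 35.9 and 33.3 CPM under shE2F1 (log2 -1.24 ± 0.27, adjusted p = 0.00351), and to a lesser -0.57 without control replicate 1. MYLIP fell by 38.9% (adjusted p = 0.00805), but not without control replicate 1 (log2 -0.48, adjusted p = 0.061). ABCG1, at 3.07 and 2.80 CPM, lay between its control values of 3.29 and 1.44 CPM. Over all 35 genes, 15 of the 22 changes passed with either control left out. Without shE2F1 replicate 1, 1 gene was higher and 12 were lower, and without replicate 2, 1 was higher. The changes that no longer passed were those of LSS, EBP, DHCR7, NSDHL, INSIG1, INSIG2 and SREBF1 without either shE2F1 library, of ACACA and MYLIP without replicate 1 and of SQLE without replicate 2, at adjusted p of 0.052 to 0.19, and LSS also had an adjusted p of 0.0517 without shEZH2 replicate 2. The counts were 4 higher and 14 lower without control replicate 1, where 17.8% and 21.1% of all genes were, and 2 and 22 without replicate 2, where 17.6% and 19.7% were, with fatty acid medians of -0.51 and -0.94 and sterol medians of 0.14 and -0.36.

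Set directly against each other, without the control libraries, the knockdowns differed in both SREBP genes and in enzymes of both arms. The shares of the 35 genes that differed were close to those of all genes. Of the 35 genes, 12 were higher and 10 lower in shEZH2 than in shE2F1, against 29.7% and 30.6% of all genes tested, and 7 were called against 23.3%. Of the sterol enzymes, 8 were higher in shEZH2 and 3 lower, with a median of 0.27, and of the fatty acid enzymes 1 was higher and 4 were lower, with a median of -0.52. These medians ran from 0.20 to 0.36 and from -0.57 to -0.38 when each library of the knockdown experiment was left out in turn. The count of lower genes was 6 without shE2F1 replicate 1 and 5 without shEZH2 replicate 2.

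SREBF2 was 1.94 ± 0.19 higher on the log2 scale in shEZH2 than in shE2F1 (adjusted p = 1.12e-05), and SREBF1 was lower (log2 -2.41 ± 0.30, adjusted p = 5.19e-05). The 2 SREBP genes therefore differed between the knockdowns in opposite directions. SCAP did not pass (adjusted p = 0.607). CYP51A1 (log2 1.47 ± 0.12, adjusted p = 3.58e-06) and ELOVL6 (log2 1.46 ± 0.09, adjusted p = 5.38e-07) were higher in shEZH2. PMVK (log2 -1.68 ± 0.16, adjusted p = 7.6e-06) and TM7SF2 (log2 -1.61 ± 0.24, adjusted p = 0.000195) were lower.

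The other sterol enzymes higher in shEZH2 than in shE2F1 were FDFT1 (log2 0.95), SC5D (0.91), SQLE (0.83), ACAT2 and MSMO1 (0.75 each), HMGCS1 (0.71) and MVD (0.50). EBP was lower (log2 -0.36), but stood at 0.07 after the GC and length correction. Among fatty acid enzymes, ACACA (log2 -0.73), FADS1 (-0.66), FADS2 (-0.52) and ACLY (-0.23) were lower in shEZH2, while SCD did not pass (adjusted p = 0.685). STARD4 (log2 0.95) and NPC1 (0.41) were higher and MYLIP (-0.72) lower. With one or another of these 4 libraries left out, ACLY, EBP, FADS1, FADS2, MSMO1, MVD and MYLIP did not pass, at adjusted p of 0.0519 to 0.382. ABCG1 had a ratio of 0.0111 to shE2F1, with an exact 95% counting interval of 0.000278 to 0.063.

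Under GSK126 none of the 35 genes passed edgeR's test, the background being 0% of 14632 genes in either direction. At an unadjusted p under 0.05 there were 1 of the 35 and 577 of all genes, and DESeq2 gave 0 of the 35. The log2 changes ran from -0.41 to 0.31, with SEs of 0.10 to 0.31, so in this fit shifts of this size could not be told from the spread between libraries. With a term for replicate number added (a replicate block), 10 of the 35 genes were higher and 5 lower, against 6.3% and 7.3% of all genes. Of the 18 sterol enzymes 8 were then higher (44.4%) and 1 lower, and of the 7 fatty acid enzymes 0 were higher and 2 lower. The labels tie the libraries by number only, so the values given here are from the fit without the block. The median was 0.16 for sterol enzymes, -0.03 for fatty acid enzymes and -0.01 for all genes.

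The direction of the small differences was compared in the libraries of the same number. Of the 18 sterol enzymes, 13 were higher in GSK126 than in DMSO in both (72.2%) and 3 lower in both, against 31.2% and 34.2% of all genes, while of the 7 fatty acid enzymes 2 were higher and 3 lower in both. This is a description, since the labels tie the libraries by number only. HMGCS1 stood at 113 and 103 CPM after DMSO and at 134 and 123 CPM after GSK126 (log2 0.25 ± 0.12, adjusted p = 1). FDFT1 read 70.7 and 69.5 CPM and then 83.7 and 81.8 CPM (log2 0.24 ± 0.11, adjusted p = 1).

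DHCR7, the last enzyme of a branch of cholesterol synthesis, read 194 and 231 CPM after DMSO and 241 and 276 CPM after GSK126 (log2 0.28 ± 0.13, adjusted p = 1). SC5D read 73.7 and 64.8 CPM and then 92.7 and 76.0 CPM (log2 0.28 ± 0.15, adjusted p = 1). TM7SF2 was lower, at 13.6 and 16 CPM after DMSO and 11.3 and 11 CPM after GSK126 (log2 -0.41 ± 0.15, adjusted p = 1). These 5 genes had the smallest unadjusted p among the 35. SREBF1 read 240 and 243 CPM after DMSO and 211 and 221 CPM after GSK126, and SCD read 1910 and 1600 CPM and then 1780 and 1470 CPM.

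Other genes are given by their levels. MVK had the largest fitted rise, from 26 and 26.8 CPM to 28.2 and 37 CPM, with more of it in replicate 2. HSD17B7 stood at 16.9 and 15.4 CPM and then at 18.2 and 20.6 CPM, and INSIG2 at 39.1 and 32.6 CPM and then at 34.9 and 26.1 CPM. Of the regulators, SREBF2 was at 181 and 194 CPM after DMSO and 199 and 206 CPM after GSK126, INSIG1 at 325 and 306 CPM and then 316 and 311 CPM, and SCAP at 90.8 and 106 CPM and then 93.7 and 111 CPM. MSMO1, at 121 and 93.1 CPM and then 142 and 116 CPM, and STARD4, at 79.6 and 60.7 CPM and then 90.0 and 67.8 CPM, were higher in both same-numbered pairs. ELOVL6, at 158 and 128 CPM and then 134 and 110 CPM, was lower in both. The MSMO1, STARD4 and ELOVL6 groups overlapped, and replicate 2 was lower than replicate 1 in DMSO and in GSK126. The sterol enzymes summed to 1370 and 1270 TPM in DMSO and 1520 and 1440 TPM in GSK126, and the fatty acid enzymes to 1360 and 1120 TPM and then 1330 and 1100 TPM.

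**Figure D4:**
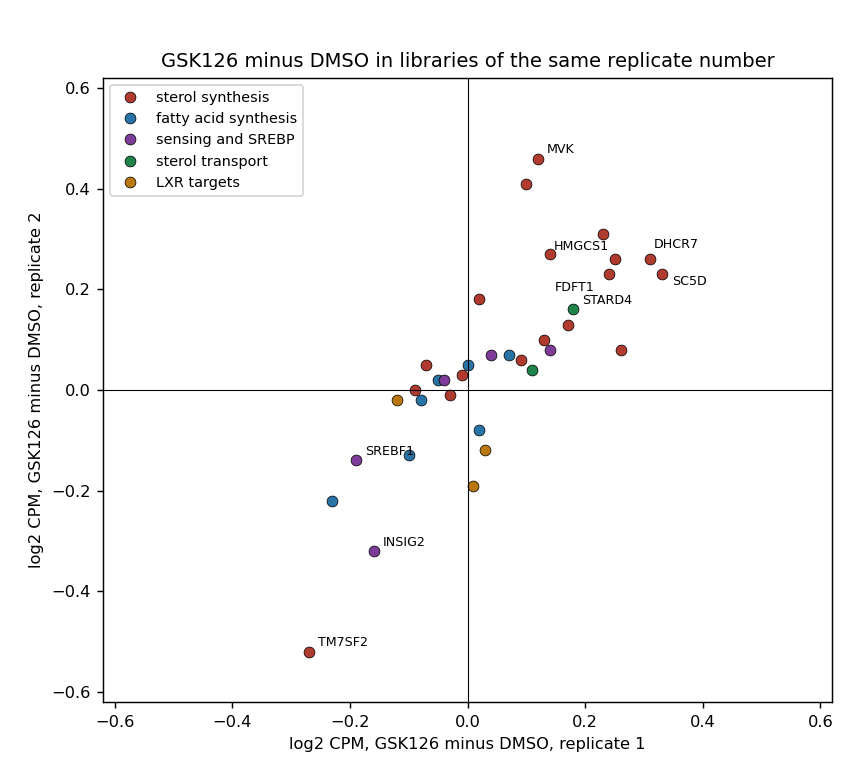
Log2 CPM in GSK126 minus DMSO for the 35 genes, in the libraries numbered 1 (horizontal axis) and 2 (vertical axis), coloured by role. Of the 18 sterol synthesis genes (dark red), 13 lie above 0 on both axes, and TM7SF2 lies farthest below 0 on both.

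The effect of EZH2 knockdown differed from that of GSK126 in most fatty acid enzymes. In the test of the difference between both effects in all 10 libraries, 4 of the 35 genes were higher and 15 lower, against 16.9% and 19.7% of all genes. Of the fatty acid enzymes 5 were lower and 1 higher (median -1.22), and of the sterol enzymes 5 were lower and 2 higher (median -0.11). SREBF1 (log2 -3.17 ± 0.36, adjusted p = 9.01e-05), FADS1 (-1.80 ± 0.24, adjusted p = 0.000205), FADS2 (-1.48 ± 0.26, adjusted p = 0.00112) and ACACA (-1.22 ± 0.19, adjusted p = 0.000541) were lower in knockdown. ELOVL6 was higher (0.84 ± 0.18, adjusted p = 0.00367). FASN (log2 -1.1) and SCD (-1.84) were also lower in knockdown, but did not pass with DESeq2 (adjusted p = 0.0587 and 0.078). Without control shRNA replicate 1 the medians were -0.62 and 0.13, and 7 genes were higher, against 2 without control replicate 2 or GSK126 replicate 2 and 1 without shEZH2 replicate 2 or DMSO replicate 1. SREBF1, FADS1, FADS2, ACACA, ELOVL6, SCAP, PMVK, EBP, MYLIP and ABCG1 passed with each of the 10 libraries left out in turn.

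The starting levels of these genes differed between the experiments. Both control shRNA libraries were below both DMSO libraries in 30 of the 35 genes (85.7%), against 27.1% of all genes, by a median of 0.69 on the log2 scale. SCD read 563 and 149 CPM in control shRNA and 1910 and 1600 CPM in DMSO. The fatty acid sums were 670 and 402 TPM in control shRNA against 1360 and 1120 TPM in DMSO. Transduction, selection and experiment cannot be told apart here, and no test was made.

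Other genes of the pathways, 54 of 55 of which were tested, moved in both directions. Under shEZH2 21 rose and 21 fell, against 27% and 28.6% of all genes. Transcripts of both proteases that cleave SREBPs were lower. MBTPS1 read 130 and 112 CPM in the controls and 48.8 and 38.7 CPM in shEZH2 (log2 -1.49 ± 0.12, adjusted p = 6.64e-06), and MBTPS2 fell too (log2 -1.06). ACSS2, which makes acetyl-CoA from acetate, fell from 49.1 and 33.1 CPM to 6.48 and 4.61 CPM (log2 -2.92 ± 0.22, adjusted p = 3.52e-06). SLC25A1, the mitochondrial citrate carrier, fell (log2 -1.36), as did MID1IP1, a partner of acetyl-CoA carboxylase (-1.23), and DGAT2, which makes triglyceride (-1.10). NR1H3, which encodes LXR alpha, fell (log2 -1.55) and so did the LXR target LPCAT3 (-1.65), while the LXR target SMPDL3A rose (log2 1.72).

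Under shE2F1, 14 of these other genes rose and 17 fell, against 21.1% and 23.7% of all genes. ME1, a source of NADPH for lipid synthesis, fell (log2 -1.83), as did the elongase ELOVL1 (-1.48), the sterol-responsive TMEM97 (-1.49), ERLIN1 (-1.25), which acts in the turnover of endoplasmic reticulum proteins, and MID1IP1 (-1.34). NR1H2, which encodes LXR beta, rose from 65.0 and 57.6 CPM to 135 and 135 CPM (log2 1.13 ± 0.10, adjusted p = 8.42e-06), and SMPDL3A rose (log2 1.5). CH25H, the cholesterol 25-hydroxylase, was scarce, at 1.01 and 0.720 CPM in the controls, 0.226 and 0.230 CPM in shEZH2, and 2.88 and 3.34 CPM in shE2F1, and was called in both comparisons. MBTPS1 and ACSS2 did not pass under shE2F1. The desaturase gene FADS3 rose there (log2 0.41, adjusted p = 0.0175), and SCD5 fell (log2 -0.37, adjusted p = 0.0482). Under GSK126, none of the 54 passed in the fit without a replicate block.

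Between the knockdowns, 21 of these 54 genes were higher and 18 lower in shEZH2, against 29.7% and 30.6% of all genes. Those higher by more than 2-fold were ERLIN2 (log2 1.04) and the ubiquitin ligase RNF145 (1.15), FNTB, a subunit of protein farnesyltransferase (1.58), ACSL1, which activates long-chain fatty acids (1.09), ME1 (1.29), ELOVL1 (1.21) and GPAM, which starts glycerolipid synthesis, at 28.7 and 25.2 CPM against 14.0 and 12.3 CPM. Those lower were ACSS2 (log2 -3.13), MBTPS1 (-1.37), SEC24D, a coat protein of transport vesicles (-1.32), the sterol 27-hydroxylase CYP27A1 (-1.61), the carboxylase ACACB (-1.39), DGAT2 (-1.21), NR1H2 (-1.21), CH25H, and SLC25A1, at 30.9 and 30.6 CPM against 65.7 and 56.8 CPM. For knockdown minus GSK126, 12 were higher and 19 lower, against 16.9% and 19.7% of all genes. Called there were GGPS1, which makes geranylgeranyl diphosphate (log2 1.01), and, lower, ACSS2 (-2.98), LPCAT3 (-1.58), DGAT2 (-1.50), MBTPS1 (-1.44), SLC25A1 (-1.30), MID1IP1 (-1.24) and TMEM97, whose ratio of effects was 0.499.

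Counting was uncertain for a few of these genes. CYP51A1 shares 67.5% of its 50-base stretches with an annotated readthrough gene, EBP 31.4% with another, and HSD17B7 14.2% with a pseudogene. The 2 readthrough genes held at most 10 counts in any library. A second gene that overlaps CYP51A1 on its strand held 45 and 32 counts in shEZH2 and 4 and 5 in shE2F1. CYP51A1 itself held 2050 and 2760 counts and 1220 and 1010 counts there. Low counts in such genes do not show that shared reads were assigned correctly. ACAT2 and HMGCS1 share 22.2% and 37.7% of their exon bases with genes on the opposite strand.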

How the data were processed

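RNA sequencing libraries of MDA-MB-231 cells were compared from tables of RSEM expected counts and TPM that the authors deposited. Per the submitters' processing notes, reads were aligned with STAR 2.7.2b and quantified with RSEM 1.3.1. The genome was hg38 with Ensembl annotation. The library kit was directional, and whether RSEM used strand is not given in the sources used here. Records with identical values were counted once, which left 10 libraries in 5 groups named by their labels, with 13198932 to 20055550 counts each. Intervals on counts cover counting error only.

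The expected counts deposited by the authors were rounded, filtered with filterByExpr, scaled by TMM and tested with edgeR 4.0.16 (R 4.3.3, glmQLFit and glmQLFTest, two-sided). The 6 knockdown libraries were fitted together, the 4 drug libraries apart, and all 10 for the test of the difference between effects. The biological coefficient of variation was 0.0948, 0.126 and 0.11 in these fits. The deposited TPM values of the authors were used for sums over genes. Identifiers were matched to GENCODE 44 (62625, 99.9%), and promoter windows came from RefSeq. Scripts were tested on simulated data.

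All 35 genes were described, and a fold change was printed where a gene passed at an adjusted p of 0.05 in a knockdown comparison, or for the 5 smallest unadjusted p under GSK126. Other pathway genes were named when called (adjusted p under 0.01 and over 2-fold). FADS3 and SCD5 were also given, beside the desaturases of the list. The genes, roles and lists were chosen with earlier results of these data known, and so no test was made over them. The alternatives were DESeq2 1.42.0, its size factors in edgeR, no filter, a mean of at least 50 counts, fits on other libraries, a replicate block, a GC and length correction, log2(TPM + 1) and leaving out each library.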

Additional observations from a re-analysis of the deposited data

How the results depend on the processing

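Most gene-level results kept their direction and their side of the threshold. This held for 343 of 359 values of the genes that changed under shEZH2, 294 of 330 under shE2F1, 301 of 329 between the knockdowns and 280 of 322 for knockdown minus GSK126, and apart from EBP none reversed. At an adjusted p under 0.01 and over 2-fold, 0 genes were higher under shEZH2, 0 higher and 8 lower under shE2F1, 3 higher and 4 lower between the knockdowns, and 0 higher and 8 lower for knockdown minus GSK126, by construction of the stricter threshold. On the log2(TPM + 1) scale the sterol and fatty acid medians were 0.36 and -0.89 under shEZH2, 0.11 and -0.60 under shE2F1, and 0.17 and -0.87 for knockdown minus GSK126, and the fatty acid median between the knockdowns was -0.33. The GC and length correction moved the medians between the knockdowns to 0.51 and -0.30 (0.52 and -0.30 with the replicate block), the sterol median of knockdown minus GSK126 to 0.05 (0.06 with the block) and its count of higher genes to 7 (7 with the block), and the fatty acid median under shEZH2 to -1.14 with the block. EBP between the knockdowns reversed to 0.07 with that correction, with and without the block. With libraries left out in turn, higher genes ran from 7 to 15 and the medians from -0.11 to 0.30 and from -1.49 to -0.70 under shEZH2. Under shE2F1 higher genes ran from 1 to 4, lower genes from 12 to 22, and the medians from -0.36 to 0.14 and from -0.94 to -0.51. Lower genes between the knockdowns ran from 5 to 11. For knockdown minus GSK126 higher genes ran from 1 to 7 and the medians from -0.35 to 0.13 and from -1.47 to -0.62. The cause of these shifts was not tested.

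Replicate numbers are shared across groups, but the labels tie them to no culture, batch or day. Differences between same-numbered libraries correlated at 0.70 between DMSO and GSK126 and at 0.03, 0.05 and 0.19 among the knockdown groups, across 11919 genes that are not independent. With the replicate block, 10 of the 35 genes were higher and 5 lower under GSK126, against 6.3% and 7.3% of all genes, and 8 and 6 with the GC correction added. The 8 sterol enzymes then higher were HMGCS1, MVK, FDPS, FDFT1, CYP51A1, MSMO1, SC5D and DHCR7. In the knockdown comparisons the block gave 9 higher and 15 lower genes under shEZH2, 4 and 19 under shE2F1, and 12 and 10 between the knockdowns. Without replication beyond 2 libraries a group, shifts of the size seen under GSK126 were not detectable without the block.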
